A study of Mus musculus with 15 samples.

Results

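Pulmonary surfactant is made by the alveolar type 2 cell, and 8 genes that mark this cell were followed through 5 flow-sorted mouse cell populations. The genes were Sftpa1, Sftpb, Sftpc, Sftpd, Slc34a2, Lamp3, Abca3 and Napsa, chosen by symbol. All 8 were among the 10222 gene symbols of the deposited table, and the values of the transcripts listed for a symbol were summed. Levels are in RPKM, a read density adjusted for transcript length and for the mapped reads of the library, so that genes can be compared with each other. The populations were EpCAM+ epithelial cells from lung (lung epithelial cells), lung stromal cells positive for the citrine reporter (lung Il33+ MSC), reporter-positive and reporter-negative stromal cells of white adipose tissue (Il33+ and Il33- WAT-MSC), and CD31+ endothelial cells of adipose tissue. Every population came from C57BL/6 mice with an Il33-citrine reporter allele, in which a yellow fluorescent protein marks cells that use the Il33 gene, and was sequenced directly after the sort with no culture or treatment. Each had 3 libraries, 15 in all. The labels give no age for the mice and name the adipose depot of the MSC as mesenteric. The methods state 3 independent experiments, and describe the gate of the adipose stromal cells but not separately that of the lung stromal cells.

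Surfactant is a film of phospholipid and protein that lowers surface tension at the air-liquid interface of the alveolus. The alveolar type 2 cell, one of the epithelial cells of the alveolus, assembles it in lamellar bodies, which are storage organelles related to lysosomes, and secretes it by exocytosis. Sftpb and Sftpc encode the small hydrophobic surfactant proteins B and C, which work within the lipid film. Sftpa1 and Sftpd encode the collectins surfactant proteins A and D, which bind microbial sugars and serve in host defence. Abca3 encodes the transporter that loads phospholipid into the lamellar body, Lamp3 a membrane protein of that organelle, Napsa an aspartic protease that cuts the precursor of surfactant protein B, and Slc34a2 the sodium-dependent phosphate transporter of the apical membrane.

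Alignments per library ranged from 42711843 to 60773158, with a median of 53038567. The reads behind each value are unknown, and errors are the SD over the 3 libraries of a population. Of 8 general epithelial markers, 8 were higher in lung epithelial cells than in lung Il33+ MSC, and of 10 stromal markers 10 were lower (limma, adjusted p below 0.05). Of all 9352 genes tested there, 1734 were higher and 2285 lower. Endothelial markers summed to 477 to 528 RPKM in the endothelial libraries and to 66.1 RPKM or less in all others. The endothelial libraries also held stromal markers, at a sum of 2042 to 4358 RPKM, against 4613 to 7931 RPKM in the WAT-MSC and 153 to 252 RPKM in lung epithelial cells. RNA of club cells was abundant in the epithelial sort: their secretoglobin Scgb1a1 alone took 57.7 to 62.9% of the summed RPKM there, and the 8 surfactant genes together took 0.563 to 1.14%. Of 6 leukocyte markers tested, 0 were higher and 0 lower in lung epithelial cells than in lung Il33+ MSC by limma. Their summed level was 52.1 to 56.5 RPKM in the first and 22.7 to 55.7 RPKM in the second. Of 10 leukocyte markers looked for, 6 were found in the deposited table, and the pan-leukocyte gene Ptprc was not.

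The 8 genes are spread over 6 mouse chromosomes (RefSeq positions, GRCm38.p6, the assembly of the mm10 build named in the submitters' processing notes). Sftpa1 (chr14:41131788-41136373) and Sftpd (chr14:41172212-41185198), the collectin genes, lie near each other on chromosome 14, and Sftpc (chr14:70520941-70524081) lies further along it. Sftpb is on chromosome 6 (chr6:72304610-72314373), Slc34a2 on chromosome 5 (chr5:53049353-53071664), Lamp3 on chromosome 16 (chr16:19653381-19706365), Abca3 on chromosome 17 (chr17:24351921-24410204) and Napsa on chromosome 7 (chr7:44572445-44586846). Promoter windows of 300 bases, from 250 before to 50 after a start site, were at hand in RefSeq for 5 of the 8 genes: Sftpa1, Sftpb, Slc34a2, Lamp3 and Abca3. They were searched on both strands for CTCAAG, the core sequence bound by the lung and thyroid factor Nkx2-1, for the Fox factor sequence TGTTTAC, and for the C/EBP sequence TTNNGNAA. The first occurred in 15.9% of all 32851 promoters, the second in 3.65% and the third in 40.7%. Windows of 3 genes that took different courses in the populations are printed: Sftpa1 and Sftpb, far higher in epithelial cells than elsewhere, and Abca3, above 1 RPKM on average in every population. All lie on the + strand of GRCm38.p6, at chr14:41131538-41131837, chr6:72304360-72304659 and chr17:24351773-24352072, and capitals mark the matches.
Sftpa1: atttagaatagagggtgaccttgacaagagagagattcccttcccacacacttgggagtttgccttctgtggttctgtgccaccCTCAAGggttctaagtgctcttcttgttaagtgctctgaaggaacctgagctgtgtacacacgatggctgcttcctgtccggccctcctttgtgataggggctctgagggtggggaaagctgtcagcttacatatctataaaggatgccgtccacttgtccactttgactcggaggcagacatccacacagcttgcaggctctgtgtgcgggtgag
Sftpb: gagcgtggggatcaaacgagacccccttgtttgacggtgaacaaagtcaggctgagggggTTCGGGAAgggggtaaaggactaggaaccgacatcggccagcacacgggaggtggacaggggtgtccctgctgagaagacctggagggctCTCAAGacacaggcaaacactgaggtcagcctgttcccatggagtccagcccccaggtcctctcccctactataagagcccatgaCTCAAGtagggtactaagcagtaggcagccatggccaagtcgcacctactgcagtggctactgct
Abca3: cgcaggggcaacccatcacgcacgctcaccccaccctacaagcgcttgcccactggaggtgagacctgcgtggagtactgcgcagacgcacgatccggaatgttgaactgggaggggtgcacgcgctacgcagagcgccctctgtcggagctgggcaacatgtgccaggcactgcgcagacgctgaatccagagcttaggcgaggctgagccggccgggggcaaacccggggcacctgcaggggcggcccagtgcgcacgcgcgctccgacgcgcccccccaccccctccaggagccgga
The window of Sftpa1 held CTCAAG once, starting at position -166 from the start site, and that of Sftpb held it at positions -100 and -15, beside a C/EBP match at -190. In the windows not printed, Slc34a2 had a C/EBP match at -48, read on both strands, and Lamp3 had the Fox sequence at -92. Neither of these windows held CTCAAG, though both genes were also far higher in epithelial cells than elsewhere. CTCAAG thus occurred in 2 of the 5 windows, the Fox sequence in 1 and the C/EBP sequence in 2. The Abca3 window held none of the 3 sequences. A match is a description of these letters, and binding was not measured.

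Lung epithelial cells held the highest level of every one of the 8 genes, and the levels covered a wide range. Sftpc stood at 919, 903 and 1925 RPKM in replicates 1, 2 and 3, a mean of 1249 ± 586 RPKM (SD, n = 3), and ranked 7 of 10222 genes by mean level. Sftpa1 stood at 284, 349 and 568 RPKM (400.4 ± 149, SD, n = 3). Sftpb stood at 250.2, 285 and 555 RPKM (363 ± 167, SD, n = 3). These surfactant protein genes ranked 7, 25 and 27 among all genes of the epithelial libraries, and in each of them replicate 3 was the highest library. Sftpd, the other collectin, was lower than Sftpa1 at 49.1, 69.1 and 133 RPKM (83.7 ± 43.8, SD, n = 3). In RNA from a sorted population, fewer cells of a type and less RNA per cell cannot be told apart.

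The genes of transport and of the lamellar body were less abundant than Sftpc. Slc34a2 stood at 135, 183 and 229 RPKM (182 ± 46.8, SD, n = 3). Lamp3 stood at 46.8, 42.4 and 87.8 RPKM (59.0 ± 25.0, SD, n = 3). The phosphate transporter thus had a mean between those of Sftpb and Sftpd, and the lamellar body protein one below Sftpd, though the libraries of Lamp3 and Sftpd overlapped. Napsa, the protease, stood at 9.41, 12.4 and 21.9 RPKM (14.6 ± 6.55, SD, n = 3). Abca3, the lipid transporter, stood at 4.81, 19.5 and 16.7 RPKM (13.7 ± 7.82, SD, n = 3). Napsa and Abca3 were the least abundant, at ranks 1317 and 1417, and their libraries overlapped.

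**Figure D1:**
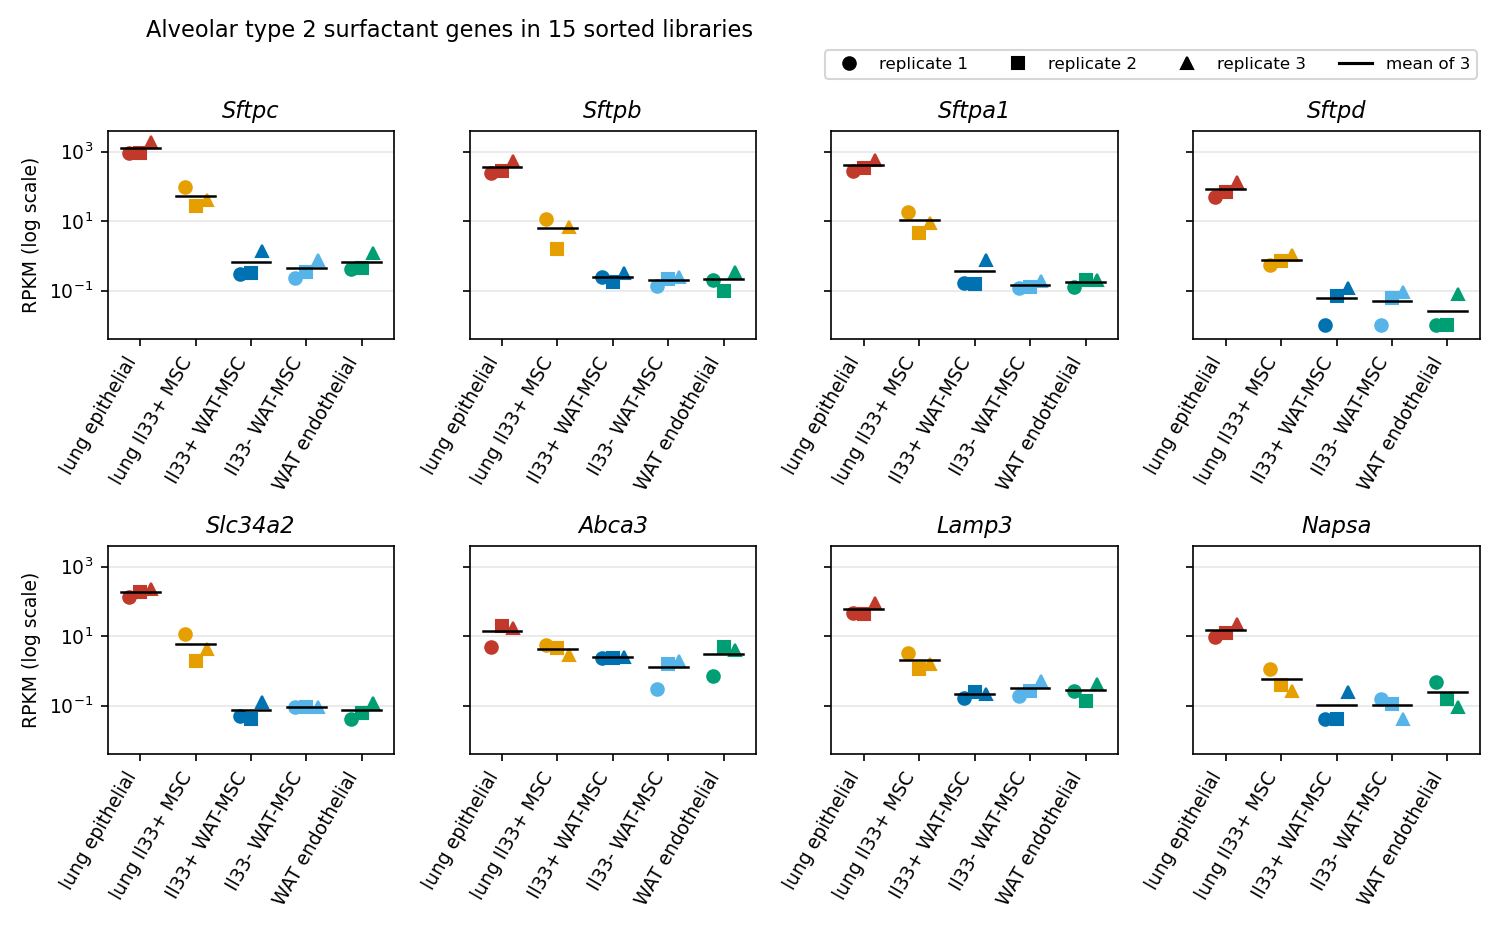
RPKM (log axis) of each surfactant gene in the 3 libraries of each population, with replicates 1, 2 and 3 as circles, squares and triangles and the mean of 3 as a line; libraries listed at 0 are drawn at 0.01. Sftpc runs from 1249 RPKM on average in lung epithelial cells through 53.8 in lung Il33+ MSC to 0.69 or less in the adipose populations, whereas Abca3 runs only from 13.7 to 1.28 RPKM.

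The epithelial libraries differed from each other in the surfactant genes. In 7 of the 8 genes replicate 3 was the highest epithelial library, the exception being Abca3, which was highest in replicate 2. How many of all genes were highest in replicate 3 was not counted. The median ratio of replicate 3 to replicate 2 was 1.85 over the 8 genes and 1.04 over the 8699 genes with a mean of at least 1 RPKM in these cells. Of those 8699 genes, 18.2% had a ratio of at least 1.5, as had all surfactant genes but Slc34a2 (1.25) and Abca3 (0.856). Over 20 other alveolar type 2 markers the median ratio was 1.57, with 16 of them highest in replicate 3. Club cell markers had a median ratio of 0.849, ciliated cell markers 1.23 and alveolar type 1 markers 1.22. General epithelial markers had a median ratio of 1.45, with 8 of 8 highest in replicate 3, and the few stromal transcripts of these libraries 1.53, with 6 of 8. Higher values in replicate 3 were thus not particular to alveolar type 2 genes, and the ratio was below 1 in the club cell list and in the endothelial list, at 0.806.

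**Figure D2:**
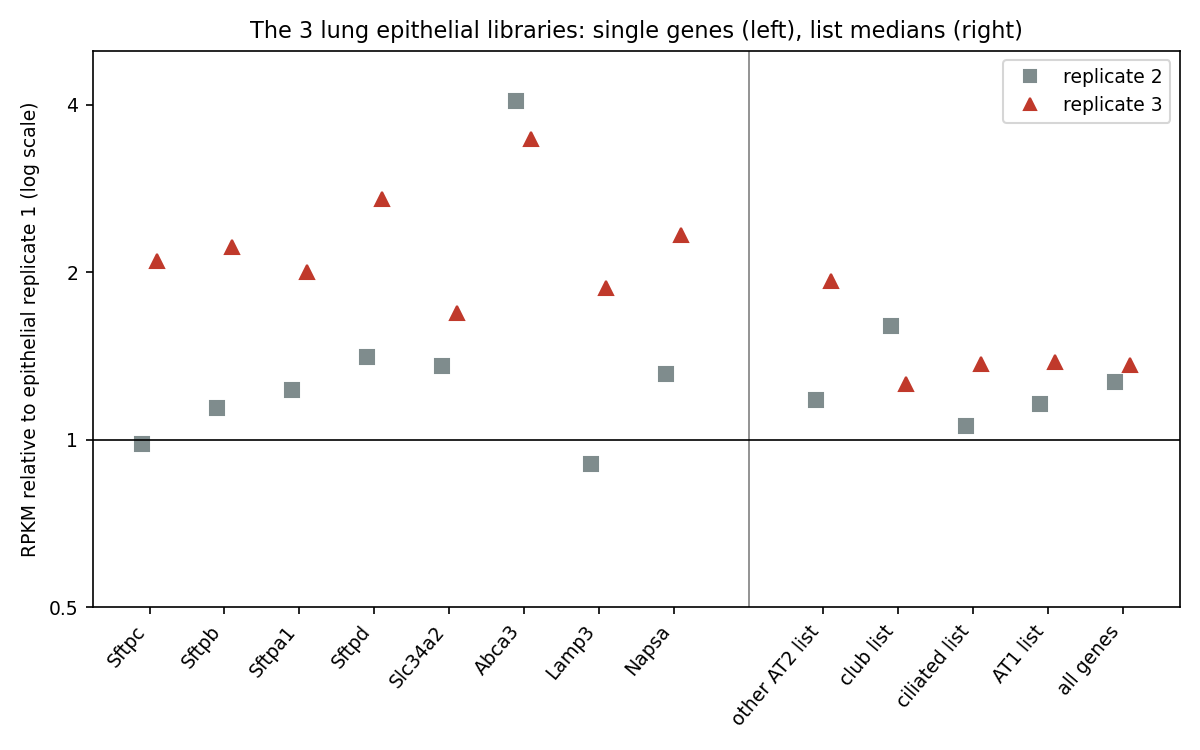
RPKM of lung epithelial replicates 2 (squares) and 3 (triangles) relative to replicate 1, on a log axis, for the 8 surfactant genes (left) and as medians of marker lists and of all genes (right); AT1 and AT2 stand for alveolar type 1 and type 2. Replicate 3 lies above replicate 2 in every surfactant gene but Abca3, and below it in the club cell list.

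Taking Sftpc as the reference within each library, the proportion of Lamp3 varied little within a population and that of Abca3 much. Lamp3 was 5.09, 4.69 and 4.56% of the Sftpc level in epithelial replicates 1, 2 and 3, and 3.56, 4.15 and 4.04% in those of lung Il33+ MSC. Sftpa1 was 30.9, 38.6 and 29.5% of Sftpc in epithelial cells and 20.1, 16.8 and 22.7% in lung Il33+ MSC. Sftpb was 27.2, 31.6 and 28.8% of Sftpc in epithelial cells and 12, 5.83 and 17.1% in lung Il33+ MSC. Sftpd was 5.34, 7.65 and 6.91% of Sftpc in the first and 0.589, 2.5 and 2.7% in the second. The proportions of Sftpa1, Sftpb, Sftpd and Lamp3 did not overlap between the 2 populations, with lower values in the stromal sort, and those of Slc34a2 and Napsa overlapped. Abca3 went the other way, at 0.523, 2.16 and 0.868% of Sftpc in epithelial cells and 5.88, 16.1 and 7.34% in lung Il33+ MSC. How many of all genes have proportions to Sftpc that separate these populations was not counted, and no test was run on the proportions.

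Both genes with more than 1 listed transcript had a share that could be followed across libraries. For Sftpb, a transcript of 1490 bases in the GENCODE annotation made up 51.8, 56.7 and 68.5% of the gene's RPKM in epithelial replicates 1, 2 and 3, and a transcript of 1131 bases the rest. The excess of Sftpb in replicate 3 was unequal between them: the longer stood at 130, 162 and 380 RPKM and the shorter at 121, 124 and 175 RPKM. For Abca3, whose 2 transcripts have the same coding length of 5112 bases, the transcript of 6380 bases made up 48.7 to 61.5% of the gene in epithelial libraries and 59.9 to 64.5% in the other 12. The division of reads between transcripts that share most of their sequence is an estimate, and no read counts were at hand to check it.

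The comparison of lung epithelial cells with lung Il33+ MSC asked how far the surfactant genes set the epithelium apart from the stroma of the same organ. Of the 8 genes, 8 were higher in the epithelial cells, against 18.5% of the 9352 genes tested. The median log2 fold change was 4.78 over the 8 genes and -0.13 over all genes tested. Sftpd differed most in the ratio of means, 108, from 0.55, 0.7 and 1.08 RPKM in the stromal libraries (0.777 ± 0.273, SD, n = 3), with a log2 fold change of 5.46 (SE 0.35, limma, adjusted p = 3.02e-06). Sftpb stood at 11.2, 1.63 and 6.87 RPKM in the stromal libraries (6.57 ± 4.79, SD, n = 3) and had a log2 fold change of 5.76 (SE 0.53, limma, adjusted p = 2.32e-05). Both lay far below every epithelial library. Sftpa1 stood at 18.7, 4.7 and 9.09 RPKM (10.8 ± 7.18, SD, n = 3) and had a log2 fold change of 5.20 (SE 0.43, limma, adjusted p = 1.28e-05). Sftpc stood at 93.4, 28.0 and 40.1 RPKM (53.8 ± 34.8, SD, n = 3) and had a log2 fold change of 4.60 (SE 0.45, limma, adjusted p = 3.51e-05). Sftpc, although 23.2 times lower on average than in the epithelial cells, still ranked 472 of 10222 genes in the lung stromal libraries.

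The genes of transport, of the lamellar body and of precursor cutting were lower in the stroma as well. Slc34a2 stood at 11.5, 1.98 and 4.14 RPKM in lung Il33+ MSC (5.88 ± 5.0, SD, n = 3), with a log2 fold change of 4.96 (SE 0.46, limma, adjusted p = 2.55e-05). Lamp3 stood at 3.33, 1.16 and 1.62 RPKM (2.04 ± 1.14, SD, n = 3), with a log2 fold change of 4.29 (SE 0.35, limma, adjusted p = 1.2e-05). Napsa stood at 1.12, 0.38 and 0.27 RPKM (0.59 ± 0.462, SD, n = 3), with a log2 fold change of 3.25 (SE 0.36, limma, adjusted p = 7.56e-05). In 7 of the 8 genes, all but Abca3, no stromal library reached an epithelial one, as in 22.2% of the 9352 genes tested. The stromal libraries of Abca3 at 5.49, 4.51 and 2.94 RPKM (4.31 ± 1.29, SD, n = 3) surrounded epithelial replicate 1 at 4.81 RPKM. Its log2 fold change of 1.30 (SE 0.46, limma, adjusted p = 0.0459) lay just under the threshold. Of 15 alternative fits 9 put it above, up to an adjusted p of 0.162, and 6 kept it below, down to 0.000691. The call was kept under median-ratio scaling (limma, adjusted p = 0.00796) and without Scgb1a1 (0.00505). Under median-ratio scaling epithelial replicate 1, at 7.02, was above the stromal libraries at 5.25, 4.0 and 2.58. With any 1 library left out other than epithelial replicate 1, Abca3 was not called. Within the first sequencing lane, with 1 library of each population, deposited values of Abca3 differed by -0.16 on the log2 scale. Within the second, with 2 of each, the difference was 2.03.

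Other genes of surfactant production were called in part, in a comparison where 18.5% of the 9352 genes tested were higher. Of 17 genes of surfactant lipid synthesis tested, 9 were higher in lung epithelial cells than in lung Il33+ MSC, 1 was lower and 7 did not pass the test, with a median log2 fold change of 0.80. Scd1, the stearoyl-CoA desaturase, was higher by 2.37 on the log2 scale (limma, adjusted p = 1.75e-05), and Lpcat1, which remodels lysophosphatidylcholine into surfactant phospholipid, by 2.14 (limma, adjusted p = 0.000369). Elovl1, a fatty acid elongase, was higher by 1.45 on that scale (limma, adjusted p = 0.00113), and Me1, the NADPH-producing malic enzyme, by 1.09 (limma, adjusted p = 0.00738). Acly, ATP citrate lyase, had a log2 fold change of 0.57 that did not pass (limma, adjusted p = 0.0521). Elovl6, also a fatty acid elongase, was the 1 lower gene, by -0.81 (limma, adjusted p = 0.0485), and was named after its value was seen. Of 11 genes of the lamellar body and of protein processing, 7 were higher, 0 lower and 4 did not pass. Atp8a1 and Atp11a, phospholipid flippases, were higher by 3.00 and 1.41 on the log2 scale, Adgrf5, a receptor that restrains surfactant secretion, by 1.86, and Ctsh, a cathepsin that takes part in the maturation of surfactant protein B, by 0.78 (limma, adjusted p = 2.93e-05, 0.00045, 8.12e-05 and 0.026). Ap3b1, an adaptor of sorting to lysosome-related organelles, had a log2 fold change of -0.30 (limma, adjusted p = 0.46). Adgrf5 was lower in lung epithelial than in adipose endothelial cells, at 55.7 and 132 RPKM on average (log2 fold change -1.21, limma, adjusted p = 0.0153).

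Transcription factors of lung epithelium and other markers of the alveolar type 2 cell were mostly higher in the epithelial cells. Of all 9352 genes tested 18.5% were. Nkx2-1, Foxa1, Ehf and Elf5, under 1 RPKM in every lung Il33+ MSC library, passed the filter only through the epithelial libraries. So did genes of the marker lists, such as Slc26a9, Hp and Ccdc153. For these the filter itself favoured a higher epithelial value, so counts of them are no support. Of 9 factors tested, 8 were higher and 1 was lower, Gata6, with a log2 fold change of -1.35 (limma, adjusted p = 0.0138), which was named after its value was seen. Nkx2-1 stood at 49.0 ± 14.2 RPKM (SD, n = 3) in the epithelium and 0.26, 0.15 and 0.73 RPKM in lung Il33+ MSC, a log2 fold change of 5.16 (limma, adjusted p = 1.52e-06). Foxa1, a forkhead factor, was higher by 4.97 on the log2 scale, Ehf and Elf5, both Ets factors, by 3.54 and 3.13, and Klf5, a zinc finger factor, by 2.78 (limma, adjusted p from 9.82e-07 to 0.00019). Of 19 other alveolar type 2 markers tested, 19 were higher, with a median log2 fold change of 3.61. Cxcl15, a lung-restricted chemokine, stood at 308 ± 127 RPKM (SD, n = 3) in epithelial cells and 6.84 in lung Il33+ MSC, Muc1 at 184 and 3.69 RPKM, and Lyz1, a lysozyme, at 333 and 18.4 RPKM. Club and ciliated cell markers were also all higher, 12 of 12 in each list, with median log2 fold changes of 7.09 and 4.22, so being higher in this comparison was not particular to alveolar type 2 cells. Of 10 alveolar type 1 markers, 5 were higher, 3 lower and 2 did not pass. The share of calls that were higher depended on scaling: it was 43.1% as deposited, 56.1% under median-ratio scaling and 66.8% when values were rescaled without Scgb1a1. These scalings moved the median of all genes by 0.28 and 0.51 on the log2 scale, and the 8 surfactant genes stayed higher under both.

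The same epithelial libraries were set against the adipose populations, so these comparisons share samples with the one above and with each other. Against Il33+ WAT-MSC, 8 of 8 genes were higher, where 18% of the 9267 genes tested were, and 6 of the 8 had passed the filter on low values only through the epithelial libraries. For those 6 the filter itself favoured a higher epithelial value, so the count is no support. Log2 fold changes were 9.50 for Sftpc, 8.17 for Sftpa1, 8.10 for Sftpb, 7.38 for Slc34a2, 6.19 for Sftpd, 5.56 for Lamp3, 3.74 for Napsa and 1.91 for Abca3 (limma, adjusted p from 3.02e-07 to 0.00764). The median was 6.79 over the 8 genes and -0.17 over all genes. The fits add 1 to every RPKM, so with adipose values near 0 these changes follow the order of the epithelial levels. In the ratio of means Slc34a2 led at 2484, before Sftpc at 1828, Sftpb at 1454, Sftpd at 1322 and Sftpa1 at 1102. The share of calls that were higher was 44% as deposited, 58.6% under median-ratio scaling and 62.8% without Scgb1a1, and scaling moved the median of all genes by 0.32 and 0.42. Against adipose endothelial cells, 7 of 8 genes were higher, where 12.8% of the 9261 genes tested were. Again 6 had passed the filter only through the epithelial libraries, with the same limit on the count. Abca3 did not pass there, with a log2 fold change of 1.82 and a 95% interval from 0.36 to 3.27 (limma, adjusted p = 0.0672), although its libraries did not overlap. It was called in 5 of 14 alternative fits (limma, adjusted p from 0.00643 to 0.232 over the 14), among them those without epithelial replicate 1 (0.0361), under median-ratio scaling (0.0163) and in the joint fit of all 15 libraries (0.0119). The part of the stromal RNA of the endothelial libraries in these values was not tested.

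**Figure D3:**
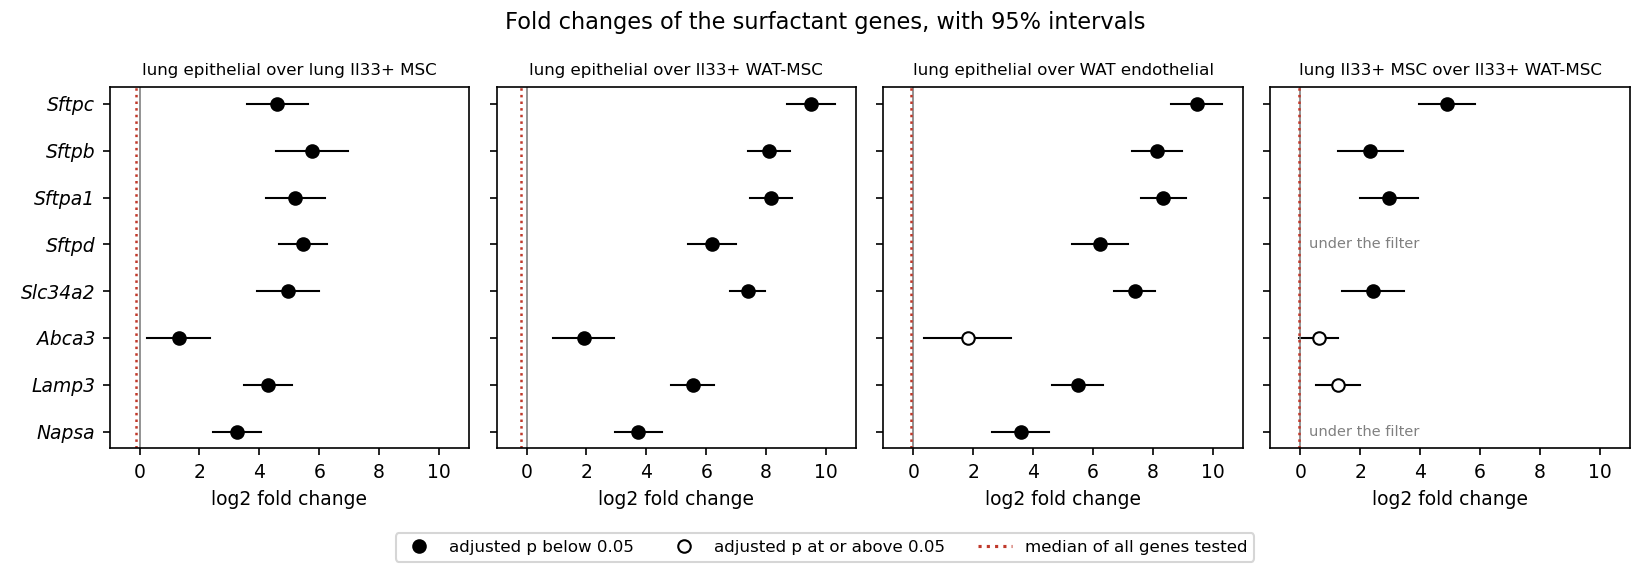
Log2 fold changes of the surfactant genes on the log2(RPKM + 1) scale in 4 comparisons, with 95% intervals as lines; filled points passed an adjusted p of 0.05 in limma, open points did not, and the dotted line is the median of all genes tested. Abca3 has the smallest change in each comparison, and Sftpd and Napsa were under the filter in the comparison of the stromal populations.

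In the adipose populations 7 of the 8 genes were at or near 0. Over those genes, without Abca3, and the 9 adipose libraries, the highest of 63 values was 1.41 RPKM, 2 values were above 1 and 4 were listed at 0. Sftpc, the most abundant, stood at 0.31, 0.33 and 1.41 RPKM in Il33+ WAT-MSC, at 0.23, 0.35 and 0.77 in Il33- WAT-MSC and at 0.42, 0.46 and 1.19 in endothelial cells. The order of the 3 adipose populations could not be told from their spread in any of these 7 genes, since neighbours in that order overlapped. For Sftpc, the 3 adipose libraries of the second lane, 0.77 to 1.41 RPKM, were all above the 6 of the first, 0.23 to 0.46 RPKM. Sftpd did the same at 0.08 to 0.12 against 0 to 0.07 RPKM, and Scgb1a1 at 96.2 to 134 against 56.1 to 78.3 RPKM. Of 993 genes whose highest adipose value was above 0 and under 2 RPKM, 2.32% showed that separation. The second lane held replicate 3 of each adipose population, so lane and replicate number cannot be told apart, and the part of either in these values was not tested.

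Lung Il33+ MSC were then compared with Il33+ WAT-MSC, the reporter-positive stromal cells of adipose tissue. Of the 8 genes 6 passed the filter, 4 of them only through the lung libraries, and 4 were higher in the lung cells, where 3.5% of the 8554 genes tested were. Sftpa1, Sftpb and Slc34a2 were among both. For them the filter itself favoured a higher lung value, so the count set beside 3.5% is no support. Sftpc had a log2 fold change of 4.90 (SE 0.42, limma, adjusted p = 0.000147). Sftpa1, with every lung library at 4.7 RPKM or above and every adipose one at 0.76 or below, had a log2 fold change of 2.96 (SE 0.43, limma, adjusted p = 0.00263). Slc34a2 had a log2 fold change of 2.43 (SE 0.47, limma, adjusted p = 0.0116). Its ratio of means, 80.1, was nonetheless close to the 78.8 of Sftpc, as adding 1 to RPKM understates changes from near 0. For Sftpc, Sftpa1 and Slc34a2 the call was kept in all alternative fits that could test them. Sftpb had a log2 fold change of 2.34 (SE 0.49, limma, adjusted p = 0.0184), and the call was lost without lung Il33+ MSC replicate 1 (adjusted p = 0.0698) or replicate 3 (0.0746), without Il33+ WAT-MSC replicate 1 (0.0517) or replicate 3 (0.0513), and without the filter (0.0552).

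Lamp3 and Abca3 did not pass, with log2 fold changes of 1.26 (95% interval 0.52 to 2.01, limma, adjusted p = 0.0551) and 0.61 (-0.03 to 1.24, limma, adjusted p = 0.313). Sftpd and Napsa, at 0.777 and 0.59 RPKM on average in the lung cells, were under the filter. Without the filter all 8 genes were tested and 5 were higher, among them Lamp3 and either Sftpd or Napsa. In each of the 6 genes that passed the filter every lung library was above every Il33+ WAT-MSC library, a separation that 11% of the 8554 genes tested showed. For the 4 that passed only through the lung libraries, Sftpa1, Sftpb, Slc34a2 and Lamp3, the filter itself fixed this separation, so it adds nothing there. Sftpd and Napsa, under the filter, were separated as well. Lung replicate 1 held the highest stromal value of 7 of the 8 genes, Sftpd being highest in replicate 3. The summed level of the 8 genes was 145, 43.0 and 66.1 RPKM in lung replicates 1, 2 and 3 and 3.37, 3.47 and 5.66 RPKM in the Il33+ WAT-MSC. Replicate 1 was the library of the first lane, and the difference in Sftpc was 6.16 on the log2 scale within that lane, with 1 lung and 2 adipose libraries, and 3.84 within the second, with 2 and 1.

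Markers of other lung cells moved in the same comparison, where 3.5% of the 8554 genes tested were higher in lung. Genes near 0 in adipose tissue passed the filter only through the lung libraries. Among them were Chil3, Cxcl15 and Sec14l3, at 0.0467, 0.41 and 0.343 RPKM on average in Il33+ WAT-MSC. For such genes the filter itself favoured a higher lung value, so counts of them are no support. Of 12 other alveolar type 2 markers tested, 4 were higher in lung Il33+ MSC and 8 did not pass: Cxcl15 by 2.38 on the log2 scale, Lyz1 by 2.89, Lyz2 by 4.85 and Cd74 by 2.76 (limma, adjusted p = 0.00399, 0.00275, 3.62e-06 and 0.00861), of which Lyz2 and Cd74 are also used by macrophages and antigen-presenting cells. Of 14 alveolar macrophage markers tested, 7 were higher and 1 lower, led by Chil3 with a log2 fold change of 5.42 (limma, adjusted p = 3.62e-06). Its level in lung Il33+ MSC, 56.9, 33.7 and 43.7 RPKM, was 99.4% of that in epithelial cells. The summed level of the macrophage list was 261 to 331 RPKM in lung Il33+ MSC and 139.7 to 217 RPKM in Il33+ WAT-MSC, where Lpl, a gene of fat tissue as well, had 154 RPKM on average. Of 3 leukocyte markers tested 1 was higher, Laptm5, and of 5 endothelial markers 2, Pecam1 and Cdh5. Of 5 club cell markers tested 3 were higher, Cyp2f2, Cbr2 and Sec14l3, by 2.72, 1.94 and 1.93 on the log2 scale (limma, adjusted p = 0.00098, 0.0263 and 0.00464). Of 2 general epithelial markers and 2 lung epithelial transcription factors tested, 0 passed, and Epcam was at 0, 0.05 and 0.28 RPKM in the lung stromal libraries. Of 16 lipid synthesis genes tested 0 were higher and Acly was lower, and of 9 genes of the lamellar body and protein processing 0 passed. The part of other cell types in the surfactant signal of the stromal libraries was not tested.

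Set against their level in epithelial cells, the surfactant genes had a higher median percentage in lung Il33+ MSC than the lists of airway genes, though single genes overlapped. The median over the 8 genes was 3.34% of the epithelial mean, ranging from 0.928% for Sftpd to 31.5% for Abca3, and in Il33+ WAT-MSC the median was 0.0832%. Other alveolar type 2 markers had a median of 4.07%, ciliated cell markers 0.844%, general epithelial markers 0.621%, lung epithelial transcription factors 0.446% and club cell markers 0.352%. Single genes ranged from 0 to 32.6% in the other alveolar type 2 list, from 0.0531 to 13.5% in the ciliated list and from 0.113 to 5.3% in the club cell list. Further lists had higher medians than the surfactant genes. Among them were alveolar type 1 markers at 16.8%, lamellar body and protein processing genes at 42.8%, lipid synthesis genes at 47.4% and alveolar macrophage markers at 101%. By library, the surfactant median was 5.99, 1.57 and 2.27% in lung replicates 1, 2 and 3, and the club cell median 0.162, 0.193 and 0.518%. The lists took a different order across these libraries: replicate 1 had the highest surfactant sum and the lowest club cell sum, 120.2 RPKM against 256 and 583 in replicates 2 and 3. Scgb1a1 itself stood at 72.9, 200.3 and 493 RPKM there, beside 94.6 RPKM on average in Il33+ WAT-MSC, a difference that did not pass (log2 fold change 1.08, limma, adjusted p = 0.354). General epithelial markers summed to 13.7, 21.1 and 26.7 RPKM in lung Il33+ MSC and 10.1, 29.4 and 45.0 RPKM in Il33+ WAT-MSC. These percentages depend on the epithelial values, of which Scgb1a1 took the larger part, and no test was run on them.

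**Figure D4:**
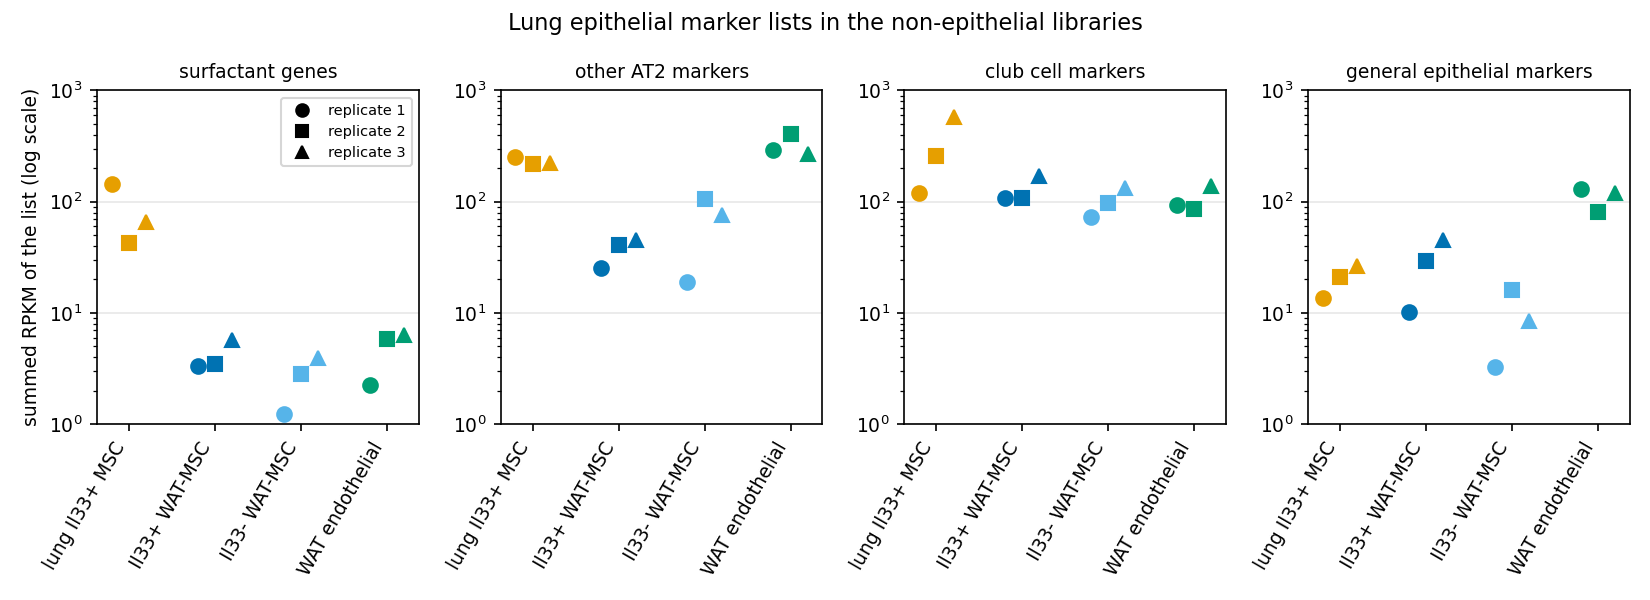
Summed RPKM (log axis) of the 8 surfactant genes and of 3 marker lists in each of the 12 non-epithelial libraries, with replicates 1, 2 and 3 as circles, squares and triangles; AT2 stands for alveolar type 2. In lung Il33+ MSC the surfactant sum is 145, 43.0 and 66.1 RPKM and the club cell sum 120.2, 256 and 583 RPKM in replicates 1, 2 and 3, so the library highest in the first is lowest in the second.

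Abca3 took a course of its own among the 8 genes. It was the only member measured above 1 RPKM on average in all 5 populations: 13.7 ± 7.82 RPKM in lung epithelial cells, 4.31 ± 1.29 in lung Il33+ MSC, 3.12 ± 2.12 in endothelial cells, 2.42 ± 0.0404 in Il33+ WAT-MSC and 1.28 ± 0.864 in Il33- WAT-MSC (SD, n = 3 each). In the deposited values only the last neighbours in that order did not overlap, with 2.38, 2.41 and 2.46 RPKM in Il33+ WAT-MSC and 0.31, 1.58 and 1.96 in Il33- WAT-MSC. That difference was not tested across genes. Replicate 1 was the lowest Abca3 library in epithelial and endothelial cells, Il33+ WAT-MSC and Il33- WAT-MSC, at 4.81, 0.72, 2.38 and 0.31 RPKM. It was the highest in lung Il33+ MSC. In every population but Il33+ WAT-MSC, replicate 1 also had the most transcripts listed at 0. Their share was 3.71% in epithelial cells, 10.94% in endothelial cells, 4.49% in lung Il33+ MSC and 7.41% in Il33- WAT-MSC. The part of such library differences in the Abca3 values was not tested.

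The genes most like each surfactant gene across the 15 libraries were found by Pearson's r on log2(RPKM + 1), computed over 9981 genes as a description. The 3 closest to each of the 8 made 24 places held by 15 genes, of which 4, Cxcl15, Chil1, Hc and Slc26a9, were on the list of other alveolar type 2 markers and held 10 of the places. The points share their libraries and populations, so r mainly reflects the high epithelial values. Cxcl15 was the closest gene to Sftpa1, Sftpb, Sftpc and Slc34a2, with r of 0.997, 0.996, 0.978 and 0.997, and Cldn18, a tight junction protein of the alveolar epithelium, the closest to Lamp3, with r of 0.997. Chil1, a chitinase-like protein, followed for Sftpa1, Sftpb and Slc34a2, with r from 0.992 to 0.997. Sftpd was closest to Nkx2-1, Slc26a9, an anion transporter, and Cyp2b10, a cytochrome P450, each with r of 0.997, which had 0.38, 0.43 and 0.513 RPKM on average in lung Il33+ MSC, where Sftpd had 0.777. Napsa was closest to Arhgef38, Hc, which encodes complement C5, and Scnn1b, a subunit of the epithelial sodium channel, with r of 0.995, 0.99 and 0.989. Sftpc was further matched by Slc7a2, a cationic amino acid transporter, and Sh2d1b1 at 0.97 and 0.968, and Lamp3 by Hc and 1700007K13Rik at 0.996 and 0.995. Among themselves, the 8 genes without Abca3 had r of 0.911 or more. Abca3 had r of 0.781 to 0.814 with the others, and its closest genes, Casz1, Fam84a and Arhgef28, had r of 0.933, 0.926 and 0.925.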

How the data were processed

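RNA of 5 flow-sorted populations, 3 libraries each, was amplified with the Ovation RNA-seq V2 system and sequenced. The authors aligned reads with TopHat2 in Partek Flow to mm10 and deposited RPKM values for 12698 RefSeq transcripts; the step that made RPKM from alignments, and versions, are not given in the sources used here. A few abundant transcripts, such as Scgb1a1, lower the RPKM of all others in a library. Populations and replicate numbers came from the sample labels, and 0 value columns lacked a sample. No libraries held identical values, and p-values measure only the spread between libraries.

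RPKM was summed per symbol (1786 of 10222 symbols had several transcripts). The limma package (version 3.58.1, R 4.3.3; lmFit, eBayes with trend) was run for 4 comparisons on log2(RPKM + 1), which understates the change of low genes, over genes with at least 1 RPKM in at least 3 of 6 libraries, with Benjamini-Hochberg adjustment over all genes tested and a threshold of 0.05. With 3 against 3 libraries an exact permutation test could not go below p = 0.1, so none was run. The code was checked on simulated data. Python 3.11.15, numpy 2.4.6, pandas 2.3.3 and matplotlib 3.10.9 served for the rest. Alternatives were a replicate block, the lane as covariate, a joint fit of all 15 libraries, median-ratio scaling, rescaling without Scgb1a1, a pseudocount of 0.1, no filter, a filter at 5 RPKM, the most abundant transcript, and each library left out. The surfactant genes, lists and tests were chosen with earlier results of these data known. Named beside the 8 were up to 5 genes of each list with the highest mean in lung epithelial cells (macrophage, leukocyte and stromal lists: lung Il33+ MSC; endothelial list: endothelial cells) and, for each of the 8, the 3 genes of highest r. Promoters and positions are from RefSeq, GRCm38.p6, and transcript lengths from GENCODE. Of the basal cell list, only Ngfr was measured, at 0.04 RPKM in epithelial cells.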

Additional observations from a re-analysis of the deposited data

How the results depend on the processing

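Over 15 alternatives for each comparison, 30 log2 fold changes of surfactant genes were recomputed 441 times: 0 reversed, 421 stayed on the same side of the threshold, 14 no longer passed and 6 passed that had not. The changes fell on Abca3 (against lung Il33+ MSC and endothelial cells), and on Sftpb and Lamp3 between the stromal populations, where Lamp3 passed only without the filter (limma, adjusted p = 0.0464). Without the filter 8 surfactant genes were tested there and 5 were higher, so either Sftpd or Napsa, not among the 30, was called as well. The replicate numbers did not pair the libraries (mean correlations of deviations 0.09, -0.03, 0.11 and 0.01). With the replicate block, Abca3 was called against endothelial cells (limma, adjusted p = 0.00643), and no other surfactant gene changed its call. It was also called there in the joint fit of 15 libraries (0.0119), under median-ratio scaling (0.0163) and without Scgb1a1 (0.0235); the cause was not tested.

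Counts over all genes moved more. Against lung Il33+ MSC, 1734 genes were higher and 2285 lower in epithelial cells, but 3024 and 1506 when rescaled without Scgb1a1, and 1069 were higher with the filter at 5 RPKM, which tests fewer genes. Against Il33+ WAT-MSC the 1672 higher genes became 2540 and 993 under those settings, and against endothelial cells the 1183 became 778 with that filter. Between the stromal populations, 299 genes were higher and 214 lower in the lung cells, but 197 and 139 in the joint fit. With 1 library left out, the higher counts there ranged from 145 to 301 and the lower from 116 to 201, lowest without lung Il33+ MSC replicate 2. With the filter at 5 RPKM only 1 surfactant gene, Sftpc, was still tested there. Member sums and the median percentage of the epithelial level, 3.34% and 2.7% under median-ratio scaling, moved by less than the spread between libraries. No read counts were used, so counting error is not covered.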
